A study of Homo sapiens with 6 samples.

Results

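Protein synthesis factors were examined in human forebrain organoids exposed to amyloid-β. The set holds the genes of the initiation factors eIF1 to eIF6 and of the elongation factors eEF1 and eEF2, with the enzymes and binding proteins that carry the same gene names. Members were taken by symbol, as every gene whose name starts with EIF1 to EIF6, EEF1 or EEF2, leaving out the eIF2 kinases (EIF2AK genes) and EIF4EBP1. The rule uses names alone and no measured value. It gave 65 of the 18056 genes listed, and values are given for 64 of them. The Y-linked EIF1AY is counted but not described. Of the 64, 60 had enough counts to be tested, and EEF1AKMT4, EIF2S3B, EIF4EBP3 and EIF5AL1 fell under the filter on low counts, with at most 16 counts in any library.

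The organoids are aggregates of neural cells that resemble the dorsal forebrain, derived from an established pluripotent line, DYR0100, which is labelled wild type and was reprogrammed from somatic cells. One group of 3 libraries received vehicle and the other group of 3 received Aβ42, a form of amyloid-β that readily aggregates, at 5 µM for 6 days. All 6 libraries carry the same batch label and come from polyadenylated RNA of whole organoids. The peptide was added to the culture, so the organoids model exposure to it and carry no amyloid mutation in their labels. The study describes the replicates as independent biological samples, but whether organoids were pooled for a library is not stated in the labels. In bulk RNA, fewer cells of a type and less RNA per cell cannot be told apart.

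Translation of most mRNAs starts when eIF4E binds the cap at the 5′ end, eIF4G links it to the helicase eIF4A and to eIF3, and eIF3 brings the small ribosomal subunit. That subunit carries eIF1, eIF1A, eIF5 and the initiator methionine tRNA bound to eIF2, and it scans for the start codon. eIF2B then reloads eIF2 with GTP, a step that the integrated stress response blocks. During elongation eEF1A delivers each aminoacyl-tRNA, the eEF1B subunits reload eEF1A, and eEF2 moves the ribosome along the mRNA. Many mRNAs of the translation machinery begin with a 5′ terminal oligopyrimidine (TOP) run, a C followed by pyrimidines, through which the growth-controlling kinase mTOR and LARP1 regulate their translation and stability.

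Each library held 16465390 to 16742958 estimated counts, and scaling factors were within 0.996 to 1.006. The dorsal forebrain marker LHX2 averaged 184 TPM with vehicle and 177 TPM with Aβ42. Of 6 microglial markers, C1QA, TREM2 and TYROBP were at 0 in every library, while CSF1R had 2 to 7 counts, P2RY12 0 to 4 and AIF1 0 to 1. The pluripotency markers NANOG and LIN28A had at most 2.01 counts and POU5F1 had 16 to 29. Libraries with the same replicate number tended to deviate from their group means in the same direction. Results of a second fit, which pairs libraries by that number (the replicate block), are therefore printed as well. Libraries of unlike number were not compared in this way, so a pairing by number is assumed and not shown. Aβ42 replicate 2 stood nearer to the vehicle libraries than the other Aβ42 libraries did. Its distance to vehicle replicate 1 was 3.16 as a chi-square per gene, against 10.6 and 10.3 for Aβ42 replicates 1 and 3. To vehicle replicates 2 and 3 its distance was 7.71 and 4.58, and to Aβ42 replicates 1 and 3 it was 9.40 and 8.49. It thus lay nearer to each vehicle library than to its own group. Of the vehicle libraries it was farthest from the one of its own number. The 4 choroid plexus markers summed to 7538 TPM in vehicle replicate 2 and 6613 TPM in Aβ42 replicate 2, and to 2823 to 3951 TPM in the other libraries. The part of that difference in the results was not tested.

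The first transcribed bases of the factors are shown because a TOP run lies there. RefSeq (GRCh38.p14) promoter windows matched 52 of the 64 factors, taking the first start listed for each gene. A C followed by at least 4 pyrimidines at the RefSeq start, read on the transcribed strand only, was present in 12 of the 52 (23.1%). Among all listed genes with a window it was present in 692 of 14376 (4.81%), and among cytosolic ribosomal protein genes in 42 of 62 (67.7%). Each line below gives the 10 bases before the start and the 20 bases from it, 5′ to 3′, with the run at the start in capitals. The first 7 belong to factors that carry the run, and EEF1G, EIF1, EIF4G2, EIF4EBP2 and EIF5 do not carry it at the listed start.
EEF1A1 (chr6:73521013-73521042, minus strand): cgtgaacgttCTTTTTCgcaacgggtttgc
EEF2 (chr19:3985444-3985473, minus strand): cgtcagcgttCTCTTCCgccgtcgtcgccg
EIF4B (chr12:53006446-53006475, plus strand): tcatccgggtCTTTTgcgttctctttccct
EIF4A2 (chr3:186783567-186783596, plus strand): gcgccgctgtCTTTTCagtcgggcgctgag
EIF3D (chr22:36529147-36529176, minus strand): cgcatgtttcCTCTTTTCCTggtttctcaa
EIF2A (chr3:150546777-150546806, plus strand): cgagcggtttCTCTTTCCgggacaacatgg
EIF3F (chr11:7987327-7987356, plus strand): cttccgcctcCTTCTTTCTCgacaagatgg
EEF1G (chr11:62573872-62573901, minus strand): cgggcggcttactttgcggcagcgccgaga
EIF1 (chr17:41688875-41688904, plus strand): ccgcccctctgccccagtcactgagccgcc
EIF4G2 (chr11:10807977-10808006, minus strand): tgtcggaagcacttccctaacttgcgcctg
EIF4EBP2 (chr10:70404135-70404164, plus strand): gccttcgcccgcttccggtcgtcgtcgtcg
EIF5 (chr14:103334227-103334256, plus strand): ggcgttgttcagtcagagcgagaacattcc
A match is a description of these letters, not a mapped start in these organoids. The start used for EIF4G2 lies inside the gene, whose RefSeq 5′ end is at chr11:10808926. For the other genes printed the start is the 5′ end of the gene. With the run allowed to begin within 5 bases of the start on either side, 20 of 52 factors (38.5%) and 3206 of 14376 genes (22.3%) held one. A run that ends before the start, as in EIF1, was counted here as well.

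Transcript levels are compared between genes in TPM, which is scaled for length. With vehicle the 64 factors summed to 23341, 22324 and 22437 TPM, which is 2.23% to 2.33% of all TPM. With Aβ42 they summed to 24262, 23483 and 24410 TPM, or 2.35% to 2.44%, and the lowest Aβ42 library stood just above the highest vehicle library. EEF1A1, the main eEF1A gene, had the most counts of any gene in every library and made up 26.3% to 28.4% of the factors' TPM. Its level with vehicle was 6097 ± 291 TPM (mean ± SD, n = 3), followed by EEF1G at 2698 ± 95.4 TPM and EEF2 at 2104 ± 70.02 TPM. These 3 elongation genes stood apart from the rest by more than their spread. The next was EIF4G2, which encodes an eIF4G-like scaffold that lacks the eIF4E binding site, at 1164 ± 48.96 TPM, ahead of the helicase gene EIF4A2 at 1015 ± 34.2 TPM and EIF1 at 773 ± 50.2 TPM. Below them EEF1B2 at 669 ± 17.5, EEF1A2 at 658 ± 23.2 and EIF4A1 at 641 ± 23.6 TPM lay within about 1 SD of their neighbour in that order.

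Subunits of one complex were not listed at one level. Within eIF3, the mean level with vehicle ran from 80.1 ± 3.398 TPM for EIF3F to 479.7 ± 19.3 TPM for EIF3L. EIF3CL, a near-identical copy of EIF3C, was listed at 0 to 4.40 TPM, and reads of these 2 genes could have been divided between them in counting. Within the exchange factor eIF2B, EIF2B2 (β subunit) stood at 13.2 ± 0.383 TPM and EIF2B1 (α subunit) at 53.2 ± 0.312 TPM. Low members included EIF5A2 at 5.197 ± 0.150, the methyltransferase EEF1AKMT3 at 3.09 ± 0.687 and the oocyte-type cap-binding gene EIF4E1B at 1.48 ± 0.157 TPM.

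**Figure D1:**
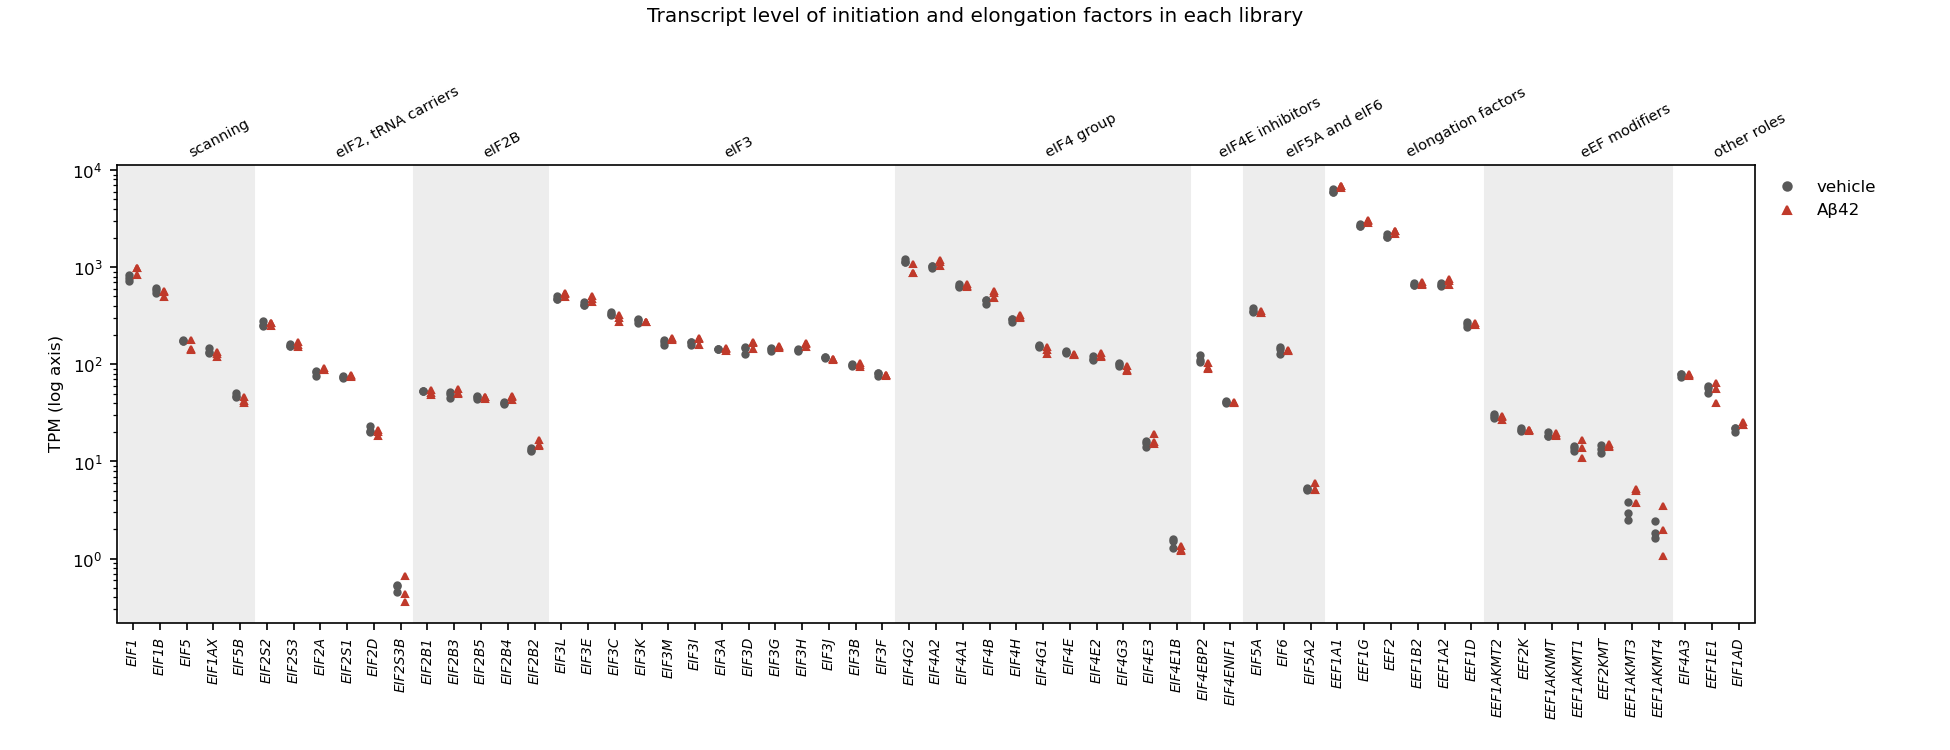
TPM of each factor in each library on a log axis, grouped by role, with circles for the 3 vehicle and triangles for the 3 Aβ42 libraries; EIF3CL, EIF4EBP3 and EIF5AL1, listed at 0 in at least 1 library, are left out. The elongation factor EEF1A1 stands highest, and differences between genes are far larger than differences between the groups.

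With Aβ42, the elongation genes EEF1A1, EEF1G and EEF2, the helicase cofactor gene EIF4B and the scanning factor gene EIF1 were higher in each library than in any vehicle library, by 0.18 to 0.32 in log2. The scaffold gene EIF4G2 and the eIF4E inhibitor gene EIF4EBP2 were lower in each library, with log2 fold changes of -0.27 and -0.21. Exposure was compared with vehicle over all 13842 tested genes, and each log2 fold change (Aβ42 relative to vehicle) is given with its standard error (SE). No factor passed an adjusted p of 0.05 in edgeR's quasi-likelihood test without a block, and no gene did (0.00% of genes). The smallest adjusted p of a factor was 0.0734, for EIF3H and EIF4B. At an unadjusted p under 0.05, 18 of the 60 factors were higher (30.0%, against 12.4% of all genes) and 4 were lower (6.67%, against 11.5%), together 22 factors where 23.9% of all genes passed in either direction. The groups did not overlap for 19 factors with higher Aβ42 values (31.7%, against 13.6% of all genes) and for 3 with lower values (5.00%, against 13.4%), namely EIF4G2, EIF4G3 and EIF4EBP2. In either direction the groups did not overlap for 27.0% of all genes. On the deposited TPM scale these counts were 13 higher and 6 lower, and no share of all genes is given for that scale. By sign alone 41 factors were higher and 19 lower, and the median log2 fold change was 0.06, against 0.003 over all genes (0.01 against -0.04 on the log2 TPM scale).

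With the replicate block, 13 of the 60 factors passed as higher (21.7%, against 7.12% of all genes) and 2 as lower (3.33%, against 7.05%). The genes that passed as higher were EEF1A1, EEF1G, EEF2, EEF1AKMT3, EIF1, EIF2B2, EIF3D, EIF3E, EIF3H, EIF3L, EIF4A2, EIF4B and EIF4H, and the lower ones were EIF4G2 and EIF4EBP2. Among other tools, DESeq2 called 8 factors higher and 2 lower (against 3.01% and 3.29% of all genes), and limma-voom with sample quality weights called 16 and 4 (against 8.75% and 9.00%). Without Aβ42 replicate 2 and without a block, 18 factors were called higher (against 11.5% of all genes) and 7 lower (against 11.6%). The blocked counts, higher and lower, were 0 and 0 without replicate number 1, against 0.605% and 0.505% of all genes. They were 8 and 3 without number 2 (against 7.31% and 7.36%), and 2 and 1 without number 3 (against 1.89% and 1.85%). Throughout the following paragraphs, rose and fell are used only of genes that passed with the block, since none passed without it.

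**Figure D2:**
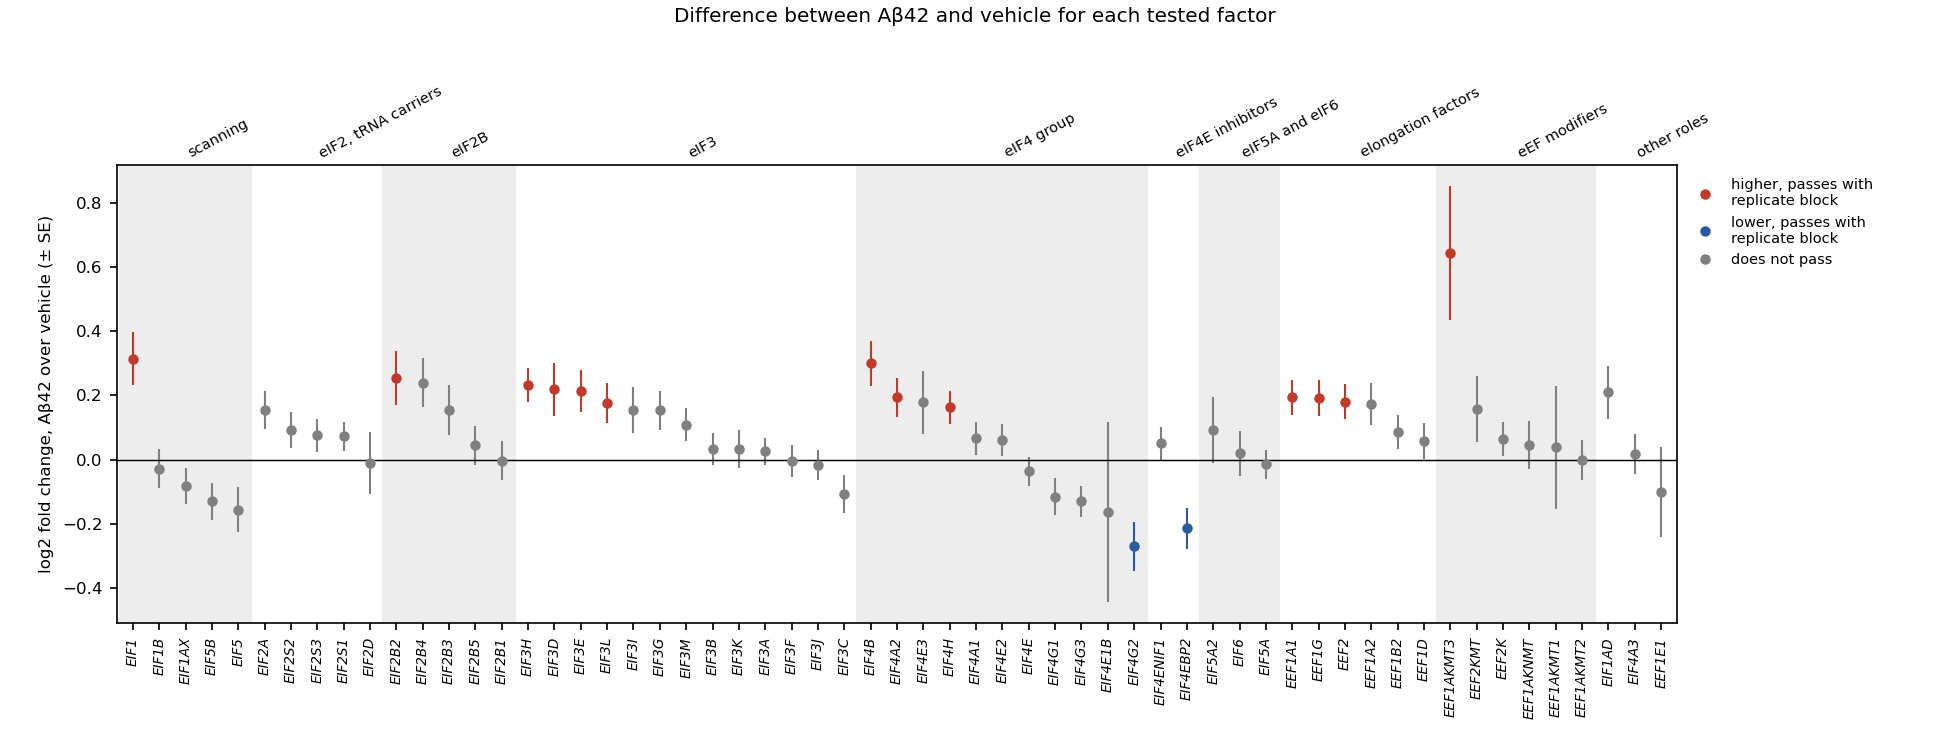
Log2 fold change (Aβ42 over vehicle) ± SE from the fit without a block for each tested factor, grouped by role; red and blue mark the 13 higher and 2 lower factors that pass an adjusted p of 0.05 with the replicate block, and EIF3CL, whose SE is above 1, is left out. All 6 elongation factors lie above 0 and the 3 eIF4G genes below it.

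All 6 elongation factors had a positive log2 fold change, with a median of 0.18, and 3 of them rose with the block: EEF1A1, EEF1G and EEF2. EEF1A1 had 8572, 7763 and 7759.6 CPM in vehicle replicates 1 to 3 and 9307, 8841 and 9421 CPM in Aβ42 replicates 1 to 3. Every Aβ42 library was above every vehicle library, and its log2 fold change was 0.19 ± 0.05 (adjusted p 0.0889, and 0.0183 with the block). EEF1G, the γ subunit of the exchange complex that reloads eEF1A, had 1309, 1197 and 1220.4 CPM in vehicle replicates 1 to 3 and 1426, 1342 and 1489 CPM in Aβ42 replicates 1 to 3. Its groups did not overlap either, with a log2 fold change of 0.19 ± 0.05 (adjusted p 0.0907, and 0.018 with the block). For EEF2, the translocation factor, the values were 2589, 2385 and 2415 CPM in vehicle replicates 1 to 3 and 2804, 2636 and 2933 CPM in Aβ42 replicates 1 to 3. Its lowest Aβ42 value was barely above its highest vehicle value, and the log2 fold change was 0.18 ± 0.05 (adjusted p 0.102, and 0.026 with the block).

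EEF1A2 is the eEF1A form that mature neurons and muscle use in place of EEF1A1. Its values were 412, 386 and 379 CPM in vehicle replicates 1 to 3 and 446, 401 and 479 CPM in Aβ42 replicates 1 to 3, so Aβ42 replicate 2 lay within the vehicle range. The log2 fold change was 0.17 ± 0.07 (adjusted p 0.151, 0.0544 with the block, and 0.00687 without Aβ42 replicate 2), and it was 0.11 without Aβ42 replicate 3. The other exchange subunits, EEF1B2 and EEF1D, had log2 fold changes of 0.09 ± 0.05 and 0.06 ± 0.06. With a trend with transcript length removed these were 0.02 ± 0.05 and 0.01 ± 0.05. In TPM, EEF1D averaged 260 with vehicle and 256 with Aβ42, so its direction depended on the scale. Summed over the 6 genes, elongation factor TPM was 12487 ± 506.6 with vehicle and 13687 ± 409 with Aβ42 (SD, n = 3 each).

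Enzymes that modify elongation factors were mostly low in level, and 1 of the 6 tested rose with the block. EEF1AKMT3, which methylates a lysine of eEF1A, had 2.88, 3.71 and 2.44 CPM in vehicle replicates 1 to 3 and 5.302, 3.801 and 5.04 CPM in Aβ42 replicates 1 to 3. The groups were separated by a narrow gap, and its log2 fold change of 0.64 ± 0.21 had the widest SE of the 15 blocked calls (adjusted p 0.115, 0.0433 with the block, and 0.0559 when the block was combined with removal of a trend with transcript length). The counts behind it were 40 to 61 with vehicle and 64 to 87 with Aβ42. EEF2KMT, an eEF2 methyltransferase, had 10.1, 11.98 and 11.2 CPM with vehicle and 12.01, 12.6 and 12.5 CPM with Aβ42, and its log2 fold change was 0.16 ± 0.10 (adjusted p 0.366). EEF2K, the kinase that inactivates eEF2, had a log2 fold change of 0.06 ± 0.05, and the remaining 3 lay between -0.0015 and 0.05.

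In the eIF4 group, which binds the cap and unwinds the 5′ leader, 4 of 11 tested genes passed with the block. The helicase EIF4A2 and the helicase cofactors EIF4B and EIF4H rose with the block, and the scaffold EIF4G2 fell. EIF4B had 679, 608 and 669.9 CPM in vehicle replicates 1 to 3 and 850.2, 719.9 and 839 CPM in Aβ42 replicates 1 to 3. All 3 Aβ42 values exceeded all vehicle values, and within each number the Aβ42 library was the higher one. The log2 fold change was 0.30 ± 0.07 (adjusted p 0.0734, and 0.000941 with the block). EIF4A2, the helicase form abundant in brain, had 677, 621 and 659.7 CPM in vehicle replicates 1 to 3 and 785, 682 and 774 CPM in Aβ42 replicates 1 to 3. Its log2 fold change was 0.19 ± 0.06 (adjusted p 0.108, and 0.0137 with the block), and replicate 2 was the lowest library of each group. EIF4H, named after its values were seen, had 268, 245 and 262 CPM in vehicle replicates 1 to 3 and 299.96, 278 and 289 CPM in Aβ42 replicates 1 to 3. Its groups did not overlap, and it had a log2 fold change of 0.16 ± 0.05 (adjusted p 0.11, and 0.0316 with the block).

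EIF4G2 had the largest decrease among the tested factors. It had 1651, 1729 and 1624 CPM in vehicle replicates 1 to 3 and 1268, 1574 and 1308 CPM in Aβ42 replicates 1 to 3. Aβ42 replicates 1 and 3 were well under every vehicle library and Aβ42 replicate 2 was close to them. The log2 fold change was -0.27 ± 0.08 (adjusted p 0.0923, and 0.00305 with the block), and it was -0.37 without Aβ42 replicate 2 (adjusted p 0.000429). EIF4G3, a cap-dependent scaffold, had 233, 242 and 239 CPM in vehicle replicates 1 to 3 and 212, 229.6 and 209.9 CPM in Aβ42 replicates 1 to 3. Its groups did not overlap, and its log2 fold change was -0.13 ± 0.05 (adjusted p 0.151, 0.0856 with the block, and 0.0158 without Aβ42 replicate 2). EIF4G1, the major scaffold, had 311, 312 and 322 CPM in vehicle replicates 1 to 3 and 267, 312 and 293 CPM in Aβ42 replicates 1 to 3. Aβ42 replicate 2 lay inside the vehicle range, and the log2 fold change was -0.12 ± 0.06 (adjusted p 0.248, 0.143 with the block, and 0.0293 without Aβ42 replicate 2). It was -0.06 without Aβ42 replicate 1 (adjusted p 0.608).

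No cap-binding protein passed with the block. EIF4E, the main one, had 114, 116 and 118 CPM in vehicle replicates 1 to 3 and 112, 112 and 116 CPM in Aβ42 replicates 1 to 3, a log2 fold change of -0.04 ± 0.05 (adjusted p 0.644). EIF4E2, a cap-binding relative that represses translation, had 101, 99.3 and 103 CPM in vehicle replicates 1 to 3 and 105, 102 and 110.1 CPM in Aβ42 replicates 1 to 3 and a log2 fold change of 0.06 ± 0.05 (adjusted p 0.463). EIF4A1, the other helicase form, had 382, 361 and 391 CPM in vehicle replicates 1 to 3 and 383, 389.6 and 414 CPM in Aβ42 replicates 1 to 3. Its groups overlapped, and its log2 fold change was 0.07 ± 0.05 (adjusted p 0.443). EIF4E3 and EIF4E1B, the low members of the family, had log2 fold changes of 0.18 ± 0.10 and -0.16 ± 0.28.

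**Figure D3:**
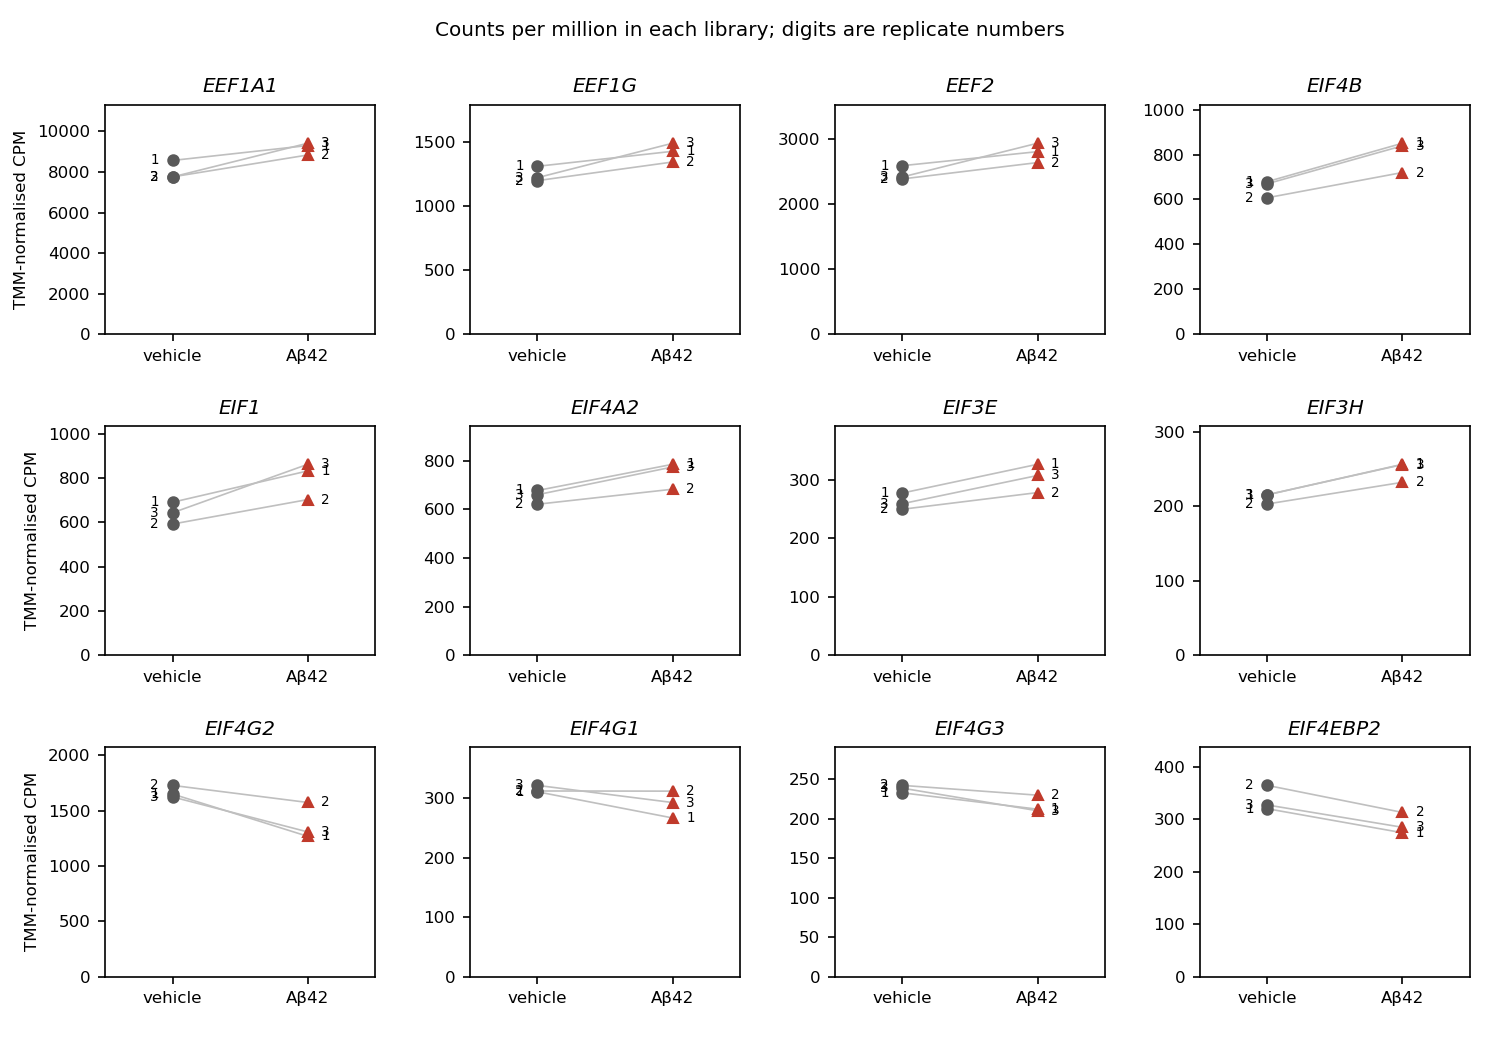
TMM-normalised CPM of 12 factors in each library, with circles for vehicle, triangles for Aβ42, digits for replicate numbers and lines joining libraries of the same number; each axis starts at 0. The first 8 genes are higher in the Aβ42 library of every number, while EIF4G2, EIF4G3 and EIF4EBP2 are lower, and in EIF4G1 the 2 libraries numbered 2 are nearly level.

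EIF4EBP2, the eIF4E-binding protein that competes with eIF4G for eIF4E and is the main form in brain, fell with the block. It had 320.1, 365 and 327 CPM in vehicle replicates 1 to 3 and 274, 313 and 285 CPM in Aβ42 replicates 1 to 3. Every Aβ42 library was under every vehicle library, and replicate 2 was the highest of each group. The log2 fold change was -0.21 ± 0.06 (adjusted p 0.0992, and 0.007 with the block). EIF4ENIF1, which carries eIF4E into the nucleus and to processing bodies, had 61.1, 62.4 and 61.7 CPM in vehicle replicates 1 to 3 and 63.6, 62.5 and 65.7 CPM in Aβ42 replicates 1 to 3. Its groups did not overlap, but its log2 fold change was only 0.05 ± 0.05 (adjusted p 0.565), and it was -0.02 on the log2 TPM scale.

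Of the 14 eIF3 subunit genes, EIF3D, EIF3E, EIF3H and EIF3L rose with the block and none fell. Their median log2 fold change was 0.07 without a block and 0.13 with it, and without a block it was 0.16 when vehicle replicate 1 was left out and 0.04 when vehicle replicate 2 was. EIF3H had 215, 203 and 215 CPM in vehicle replicates 1 to 3 and 256, 232 and 256 CPM in Aβ42 replicates 1 to 3. The groups did not overlap, and the log2 fold change was 0.23 ± 0.05 (adjusted p 0.0734, and 0.005 with the block). EIF3E had 278, 250.01 and 259.6 CPM in vehicle replicates 1 to 3 and 327, 279 and 308 CPM in Aβ42 replicates 1 to 3. The gap between the groups was small, since Aβ42 replicate 2 was just above vehicle replicate 1, and the log2 fold change was 0.21 ± 0.06 (adjusted p 0.0986, and 0.00865 with the block). EIF3D, a subunit that can itself bind the cap of some mRNAs, had 95.6, 81.8 and 96.3 CPM in vehicle replicates 1 to 3 and 113, 94.4 and 111 CPM in Aβ42 replicates 1 to 3. The groups overlapped, while each Aβ42 library exceeded the vehicle library of its number, and the log2 fold change was 0.22 ± 0.08 (adjusted p 0.156, and 0.0111 with the block).

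EIF3L, named after its values were seen, had 432, 392 and 399 CPM in vehicle replicates 1 to 3 and 467, 425 and 489.7 CPM in Aβ42 replicates 1 to 3. Its groups overlapped by 1 library, and it had a log2 fold change of 0.18 ± 0.06 (adjusted p 0.127, and 0.0322 with the block). The core scaffold subunits EIF3A, EIF3B and EIF3C had log2 fold changes of 0.03 ± 0.04, 0.03 ± 0.05 and -0.11 ± 0.06. EIF3C thus differed in sign from its partners, and EIF3CL, its copy, had an SE of 1.18 that leaves its direction undetermined. The other members EIF3F, EIF3G, EIF3I, EIF3J, EIF3K and EIF3M lay between -0.02 and 0.15, and only EIF3G among them had groups that did not overlap.

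Among the scanning and start-site factors, EIF1 rose with the block and the other 4 had negative log2 fold changes. EIF1, which keeps the scanning ribosome open and enforces stringent start codon choice, had 691, 593 and 643 CPM in vehicle replicates 1 to 3 and 832, 703 and 862 CPM in Aβ42 replicates 1 to 3. The groups did not overlap, although Aβ42 replicate 2 was close to vehicle replicate 1, and the log2 fold change was 0.32 ± 0.08 (adjusted p 0.0837, and 0.000985 with the block). Its relative EIF1B had 148, 156 and 162 CPM in vehicle replicates 1 to 3 and 139.8, 159.9 and 158 CPM in Aβ42 replicates 1 to 3. These values overlapped throughout, and the log2 fold change was -0.03 ± 0.06 (adjusted p 0.803).

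EIF5 acts against eIF1 at the start codon, where it triggers GTP hydrolysis by eIF2. It had 397, 387 and 400.00 CPM in vehicle replicates 1 to 3 and 330.01, 400.5 and 332 CPM in Aβ42 replicates 1 to 3. Aβ42 replicates 1 and 3 were under all other libraries, and Aβ42 replicate 2 was the highest of the 6. The log2 fold change was -0.16 ± 0.07 (adjusted p 0.213, and 0.0932 with the block), and it was -0.25 without Aβ42 replicate 2 (adjusted p 0.00214). EIF5B, which joins the ribosomal subunits, had 104, 113 and 105 CPM in vehicle replicates 1 to 3 and 95.5, 104 and 93.8 CPM in Aβ42 replicates 1 to 3. Only Aβ42 replicate 2 reached the vehicle range, and the log2 fold change was -0.13 ± 0.06 (adjusted p 0.199, 0.104 with the block, and 0.029 without Aβ42 replicate 2). EIF1AX, which works beside eIF1 in scanning, had a log2 fold change of -0.08 ± 0.06.

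None of the 5 tested carriers of the initiator tRNA passed with the block. The 3 eIF2 subunits EIF2S1, EIF2S2 and EIF2S3 had log2 fold changes of 0.07 ± 0.05, 0.09 ± 0.06 and 0.08 ± 0.05. EIF2S2, the β subunit, had 208, 186 and 192 CPM with vehicle and 216, 197 and 211 CPM with Aβ42, and its groups overlapped (adjusted p 0.341). EIF2A, an alternative carrier unrelated to the eIF2 subunits, had 77.4, 69.3 and 78.3 CPM in vehicle replicates 1 to 3 and 84.04, 80.2 and 86.1 CPM in Aβ42 replicates 1 to 3. Its groups did not overlap, and its log2 fold change was 0.15 ± 0.06 (adjusted p 0.159, and 0.0706 with the block). EIF2D had a log2 fold change of -0.01 ± 0.10.

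In eIF2B, the target of the integrated stress response, 4 of 5 subunits had positive log2 fold changes and EIF2B2 rose with the block. EIF2B2 had 22.7, 21.04 and 21.4 CPM in vehicle replicates 1 to 3 and 25.05, 24.2 and 28.5 CPM in Aβ42 replicates 1 to 3. The groups did not overlap, and the log2 fold change was 0.26 ± 0.08 (adjusted p 0.116, and 0.047 with the block). EIF2B4, the δ subunit, had 22.7, 21.6 and 21.2 CPM in vehicle replicates 1 to 3 and 26.02, 24.2 and 27.2 CPM in Aβ42 replicates 1 to 3. It showed the same order of groups, with a log2 fold change of 0.24 ± 0.08 (adjusted p 0.112, and 0.0531 with the block). The catalytic subunit EIF2B5, its partner EIF2B3 and the regulatory EIF2B1 had log2 fold changes of 0.04 ± 0.06, 0.16 ± 0.08 and -0.004 ± 0.06.

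eIF5A, which relieves ribosomes stalled on difficult sequences and carries the modified residue hypusine, and eIF6 gave no call with the block. EIF5A had 137, 146 and 138 CPM in vehicle replicates 1 to 3 and 137, 140.03 and 139 CPM in Aβ42 replicates 1 to 3, a log2 fold change of -0.02 ± 0.05 (adjusted p 0.863). EIF5A2, the minor form, had 11.4, 11.4 and 10.9 CPM in vehicle replicates 1 to 3 and 13.2, 11.2 and 11.4 CPM in Aβ42 replicates 1 to 3, a log2 fold change of 0.09 ± 0.10 (adjusted p 0.611). EIF6, which holds the large subunit apart until it is mature, had a log2 fold change of 0.02 ± 0.07.

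A few genes share the names but have other known roles. EIF1AD had 17.9, 19.2 and 18.3 CPM in vehicle replicates 1 to 3 and 22.98, 20.4 and 20.8 CPM in Aβ42 replicates 1 to 3, with groups that did not overlap and a log2 fold change of 0.21 ± 0.08 (adjusted p 0.16). EEF1E1, a scaffold of the multi-tRNA synthetase complex, had 14.2, 15.4 and 14.9 CPM in vehicle replicates 1 to 3 and 10.6, 14.7 and 16.3 CPM in Aβ42 replicates 1 to 3. Aβ42 replicates 1 and 3 were its lowest and highest values, and its log2 fold change of -0.10 ± 0.14 changed sign without the first of them (adjusted p 0.683). EIF4A3, a core protein of the exon junction complex, had a log2 fold change of 0.02 ± 0.06.

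The factors whose mRNAs are textbook TOP mRNAs (EEF1A1, EEF1B2, EEF1D, EEF1G, EEF2, EIF3E, EIF3F, EIF3H and EIF4B) were set beside the other tested factors. Their median log2 fold change was 0.19, 6 of 9 rose with the block (against 7.12% of all genes) and none fell, and groups did not overlap for 6, all higher with Aβ42 (against 13.6% of all genes). For the 51 other factors the median was 0.05, with 7 that rose and 2 that fell. The TPM of the 9 summed to 12912 ± 514 with vehicle and 14211 ± 434.1 with Aβ42, while the others summed to 9789 ± 72.8 and 9840 ± 85.9 TPM (SD, n = 3 each). This split by textbook knowledge was made with results of these data known. EEF1B2, EEF1D and EIF3F did not pass with the block. EIF3F, which carries one of the longest runs shown above, was the only one of the 9 below 0, with a log2 fold change of -0.0038 ± 0.05.

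Sorting by the letters at the start instead gave a median log2 fold change of 0.15 for the 11 tested factors with a run (9 above 0 and 2 below) and 0.03 for the 37 without one (21 above and 16 below). With the run allowed to begin within 5 bases of that start, the medians were 0.08 for 19 factors (13 above 0 and 6 below) and 0.03 for 29 (17 above and 12 below). EEF1G and EIF1 rose with the block but carry no run at the listed start, and EIF4G2 and EIF4EBP2, which fell, carry none there either. For EIF4G2 that start is not the 5′ end of the gene. Within 5 bases of the start EEF1G has no run. The run counted for EIF1 was cut at 5 bases upstream, reaches farther upstream in the letters above and ends before the start. EIF4G2 and EIF4EBP2 each have one, of 7 and 5 bases, that begins 1 base downstream. The cytosolic ribosomal proteins, the classical TOP group, had a median of 0.26 over 77 genes, all above 0, and 71 rose with the block (against 7.12% of all genes). Over the libraries their mean deviation in log2 CPM was -0.04, -0.21 and -0.16 with vehicle and 0.17, 0.03 and 0.20 with Aβ42. For the 9 TOP factors it was -0.01, -0.13 and -0.11 with vehicle and 0.11, 0.01 and 0.13 with Aβ42. In both groups of genes vehicle replicate 1 was the highest vehicle library and Aβ42 replicate 2 the lowest Aβ42 library.

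Pairs of related genes were compared as TPM ratios within each library, for 6 pairs, by an exact permutation test that cannot give a p under 0.1 with 3 libraries against 3. The ratio of EIF4E to EIF4E2 was 1.15, 1.12 and 1.21 with vehicle and 1.03, 1.06 and 0.980 with Aβ42. These groups did not overlap, and the difference was -0.18 in log2 (exact p 0.1, adjusted 0.4 over the 6 pairs). The count per TPM of EIF4E2 varied by 4.60% between libraries (coefficient of variation), so its effective length was not constant, and in CPM the log2 fold changes of the 2 genes were -0.04 and 0.06. EIF1 over EIF1B averaged 1.35 ± 0.15 with vehicle and 1.73 ± 0.265 with Aβ42 (SD, n = 3), a log2 difference of 0.36 with overlapping groups (exact p 0.2, adjusted 0.4). EIF4A1 over EIF4A2 averaged 0.632 ± 0.0163 and 0.579 ± 0.045, a log2 difference of -0.13 (exact p 0.2, adjusted 0.4). The ratio of EEF1A1 to EEF1A2 was 9.26 ± 0.148 with vehicle and 9.48 ± 0.544 with Aβ42, with overlapping groups and a log2 difference of 0.03 (exact p 0.6, adjusted 0.72). EIF5A over EIF5A2 was 69.4 ± 2.53 and 64.2 ± 6.12 (exact p 0.3, adjusted 0.45), and EIF4G1 over EIF4G3 was 1.55 ± 0.0364 and 1.56 ± 0.0936 (exact p 0.8, adjusted 0.8).

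Regulators of these factors were taken from a list of 45 genes that covers the eIF2 kinases and phosphatases, the mTOR pathway, poly(A)-binding and release factors, and the enzymes that make hypusine and diphthamide. All 45 were tested, none passed without a block (9 higher and 7 lower at an unadjusted p under 0.05, against 12.4% and 11.5% of all genes), and their median log2 fold change was -0.02. With the block 6 passed as higher and 4 as lower, which is 13.3% and 8.89% of the list against 7.12% and 7.05% of all genes. The higher ones were DHPS, PABPC1, PAIP2B, PDCD4, TPT1 and DPH5, and the lower ones were DENR, DHX29, EIF2AK2 and EIF2AK3.

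DHPS makes the first intermediate of hypusine on eIF5A, and it had 53.8, 51.4 and 50.2 CPM in vehicle replicates 1 to 3 and 65.8, 59.8 and 64.9 CPM in Aβ42 replicates 1 to 3. Its groups did not overlap, and its log2 fold change was 0.29 ± 0.06 (adjusted p 0.0684, and 0.0046 with the block). PDCD4, an inhibitor of the eIF4A helicase, had 87.8, 88.4 and 90.3 CPM in vehicle replicates 1 to 3 and 116, 96.7 and 105 CPM in Aβ42 replicates 1 to 3 and a log2 fold change of 0.25 ± 0.06 (adjusted p 0.0765, and 0.0104 with the block). TPT1, itself a TOP mRNA, had a log2 fold change of 0.21 ± 0.06, and PABPC1, the cytoplasmic poly(A)-binding protein, of 0.20 ± 0.07 (adjusted p 0.014 and 0.0168 with the block). DHX29, a helicase for structured leaders, had a log2 fold change of -0.23 ± 0.06, and DENR, a reinitiation factor, of -0.18 ± 0.06 (adjusted p 0.0146 and 0.0335 with the block).

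Among the stress kinases, EIF2AK3 (PERK), the sensor in the endoplasmic reticulum, had 77.9, 80.4 and 78.1 CPM in vehicle replicates 1 to 3 and 60.6, 73.9 and 63.8 CPM in Aβ42 replicates 1 to 3. The log2 fold change was -0.25 ± 0.07 (adjusted p 0.0891, and 0.0105 with the block). EIF2AK4 (GCN2), the amino acid sensor, had a log2 fold change of 0.02 ± 0.05 (adjusted p 0.849). PPP1R15A (GADD34), the stress-induced phosphatase subunit that acts on eIF2, had a log2 fold change of 0.15 ± 0.06 (adjusted p 0.166, and 0.0704 with the block). For MTOR the log2 fold change was -0.14 ± 0.05 (adjusted p 0.159, and 0.0837 with the block). The mitochondrial translation factors, a separate machinery, were tested for 9 genes, none passed with or without the block or at an unadjusted p under 0.05, and their median log2 fold change was -0.03.

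Lists of markers of cell state and cell type differed unevenly between the groups. The 5 dorsal forebrain markers had a median log2 fold change of 0.03, with 4 above 0 and 1 below, and none passed with the block. All 10 proliferation markers had negative log2 fold changes with a median of -0.49, and 9 of them fell with the block (against 7.05% of all genes). Their summed level was 509.9 to 613.5 TPM with vehicle and 322 to 464 TPM with Aβ42. The 6 intermediate progenitor markers had a median of -0.86, 4 fell with the block, and NEUROG2 was above 0 at 0.04. Their summed level was 248 to 282 TPM with vehicle and 175 to 206 TPM with Aβ42. The 8 neuron markers had a median of -0.07, with 4 above 0 and 4 below, and TUBB3, MAP2 and GAP43 fell with the block. Of the 7 radial glia markers (median 0.07), SOX2, VIM, HES1 and FABP7 were above 0 without passing, while NES and SLC1A3 fell. Of the 4 astrocyte markers (median -0.36), S100B fell, and ALDH1L1 was above 0 at 0.33 without passing. All 4 choroid plexus markers were below 0 (median -0.49), and CLIC6 fell. Each of these counts stands beside the 7.05% of all genes that fell with the block. Proliferation scores were 0.16, 0.39 and 0.21 with vehicle and -0.37, 0.07 and -0.47 with Aβ42, so Aβ42 replicate 2 was again the nearest to vehicle. The eIF4G scaffolds stood at 0.07, 0.11 and 0.09 with vehicle and -0.18, 0.04 and -0.12 with Aβ42. Here too Aβ42 replicate 2 was nearest to vehicle, as it was for the TOP factors and the ribosomal proteins. The lowest library was Aβ42 replicate 1 for eIF4G and Aβ42 replicate 3 for proliferation. The part of cell composition in the differences of the factors was not tested.

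**Figure D4:**
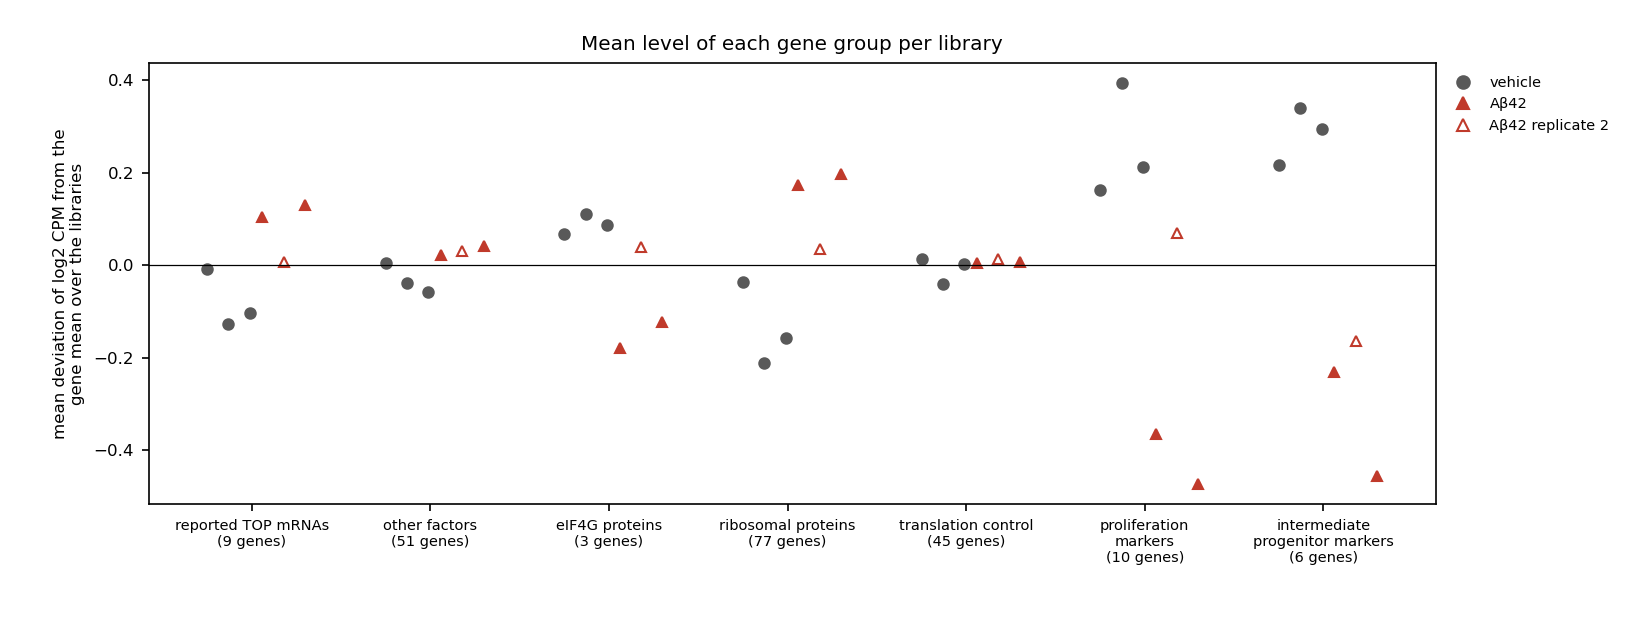
Score of each gene group per library (each tested gene's log2 CPM minus its average across the 6 libraries, averaged over the group), with circles for vehicle, filled triangles for Aβ42 and an open triangle for Aβ42 replicate 2. TOP factors and ribosomal proteins are higher with Aβ42, eIF4G genes and both marker groups are lower, and the 45 translation control genes show no separation.

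Transcript length moved with the fold changes across genes. Over the 60 tested factors, log2 fold change and log2 relative length had a Pearson r of -0.15 and a Spearman rho of -0.18, and over 13782 tested genes -0.11 and -0.16. These are descriptions across genes that share the same 6 libraries. With this trend removed, the median log2 fold change of the elongation factors was 0.15, of the TOP factors 0.17, and of the eIF4G genes -0.10. With the trend removed and the block kept, 12 of 60 factors passed as higher (against 7.46% of all genes) and 2 as lower (against 6.94%), with EEF1AKMT3 lost. The 77 cytosolic ribosomal proteins, at a median relative length of 0.15, had a median log2 fold change of 0.19 with the trend removed. With the block kept as well, 64 of them passed as higher.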

How the data were processed

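Bulk RNA of 3 vehicle and 3 Aβ42 organoid libraries was sequenced, prepared with a stranded kit and PCR per the labels' protocols, without mention of molecular identifiers. The authors deposited 1 table that pairs estimated counts with TPM for each library. Its headers call the counts read counts, yet 86.9% to 87.5% of the values were whole (tolerance 1e-06), so they were handled as estimated counts. The submitters' processing notes name FastQC, STAR 2.7.11b, featureCounts 2.0.6 and GRCh38 without their roles; the annotation and strand setting are not given in the sources used here. Counting could have divided reads between close copies, pseudogenes or overlapping genes. The TPM values were scaled by the authors for length and library total. Among 4062 genes with high counts in every library, the count per TPM varied by more than 2% between libraries in 454 (11.2%), so their length was not constant.

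Estimated counts were rounded, filtered with filterByExpr (13842 genes kept), scaled by TMM and compared with edgeR 4.0.16 (quasi-likelihood test, robust, no block, two-sided, R 4.3.3), with Benjamini-Hochberg adjustment over all tested genes and a threshold of 0.05. CPM values are TMM-normalised. Relative length is the count per TPM, and its trend was removed with a lowess fit (span 0.3). Scores use log2 CPM with a pseudocount of 0.5, and paralogue ratios were tested on log2(TPM + 1). DESeq2 1.42.0 and limma 3.58.1 served as alternatives. The test was checked on simulated data. Between all pairs of libraries the chi-square per gene was 3.16 to 21.2, so none was counted as a duplicate.

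No label ties equal replicate numbers to one culture or day. Between same-numbered libraries, deviations from the group mean correlated at 0.20, 0.41 and 0.13 for numbers 1, 2 and 3 (across 12187 genes), so the pairing comes from the data alone. Libraries of unlike number were not correlated. These values therefore cannot show that the numbers pair the libraries, and the block remains an assumption. p-values measure the spread between these libraries, and precision covers counting error without correction for PCR copies.

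Members and lists were chosen with earlier results of these data known. Values per library are given for the 2 tested members of each role with the smallest p, for both genes of each paralogue pair, and for members that passed with or without the block, at most 3 per role. Of the translation control list, the 3 genes with the smallest p in each direction were named, with EIF2AK3, EIF2AK4, PPP1R15A, MTOR and PABPC1 whatever their result. EIF5, EIF4H, EIF3L, PAIP2B, DPH5 and EIF2AK2 were named after their values were seen. The 5′ sequences come from RefSeq tables of GRCh38.p14.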

Additional observations from a re-analysis of the deposited data

How the results depend on the processing

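Precision is limited by 3 libraries a group. Against 0 factors called higher and 0 lower by the fit without a block (22 at an unadjusted p under 0.05), DESeq2 called 8 and 2, limma-voom with quality weights 16 and 4, and no filter on low counts 2 and 0. The replicate block gave 13 and 2, changing no other call of a named factor, and the block with the length trend removed 12 and 2. Leaving out 1 library gave 0 to 18 and 0 to 7, above 0 only without Aβ42 replicate 2. With the block and 1 replicate number left out (chosen after seeing the data) the counts were 0 and 0, 8 and 3, and 2 and 1 for numbers 1, 2 and 3. Translation control genes went from 0 and 0 to 4 and 2 with DESeq2, 5 and 6 with quality weights, 2 and 0 without a filter, 6 and 4 with the block and 5 and 3 with the block and length trend. Leaving out 1 library gave 0 to 9 and 0 to 7 for them, and the block without numbers 1, 2 and 3 gave 1 and 0, 4 and 4, and 1 and 0. RLE and upper-quartile scaling, limma-voom without weights and a mean of at least 10 counts gave 0 calls in both sets, as did limma on log2 TPM. Calls by unlike settings were not compared gene by gene.

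Factors whose groups do not overlap (19 higher, 3 lower) became 13 higher and 6 lower on both log2 TPM scales, where the median log2 fold change was 0.0098 with a pseudocount of 0.1 and 0.0097 with 1 (0.06 as reported) and the median of all genes -0.04. Leaving out 1 library gave 20 to 31 higher and 3 to 9 lower. These were 31 and 9 without Aβ42 replicate 2, and the lower count was 6 and 5 without the first vehicle and the last Aβ42 library. No share of all genes is given for the TPM scales or with 1 library left out. With a library left out the groups of any gene separate more readily, so these counts have no background beside them. EIF2AK4 reversed to -0.024 and -0.023 on the TPM scales (pseudocounts 0.1 and 1), had -0.0052 to 0.054 with 1 library left out, and was -0.0057 and -0.0038 with the block without numbers 2 and 3. EIF4ENIF1 reversed to -0.017 and -0.016 on the TPM scales. With 1 library left out EEF1E1 ran from -0.23 to 0.059, EIF1B from -0.064 to 0.032 and EIF5A from -0.033 to 0.015. The block without number 1 reversed EEF1E1 to 0.028, and the block without number 2 reversed EIF5A to 0.0092. With 1 library left out the log2 ratio of EEF1A1 to EEF1A2 ran from -0.0089 to 0.074, and that of EIF4G1 to EIF4G3 from -0.031 to 0.054. The cause was not tested. Library scaling cancels in a ratio within a library, so the ratios were not recomputed for it. Overlap counts were recomputed only where a setting changes the values.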
